A study of Mus musculus with 8 samples.

Results

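The genes described here are Atf4 and genes tied to the integrated stress response that it carries out, Atf5, Ddit3, Trib3, Ppp1r15a, Asns, Chac1, Phgdh and Psat1, together with Xbp1 of the neighbouring unfolded protein response. They were chosen by gene symbol, with earlier results of these data known, and all 10 were found among the 20245 entries of each library. The study sequenced RNA of whole C57BL/6 mouse kidneys, with 8 libraries in 4 groups of 2. PKD_FP kidneys had autosomal dominant polycystic kidney disease (PKD) and were given FP, which is flavopiridol, a drug that blocks CDK9 in the elongation complex P-TEFb and other cyclin-dependent kinases. PKD_DMSO kidneys had the disease and were given the solvent DMSO, WT_FP kidneys were wild type and were given flavopiridol, and WT_DMSO kidneys were wild type and were given DMSO. The sources used here do not give the mutated gene, how the mutation was driven, the dose, the schedule or the mouse age. The labels do not say whether the 2 libraries of a group came from separate animals, so the p-values reflect spread among these samples and no more.

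In the integrated stress response, kinases that sense unfolded protein, amino acid shortage, viral RNA or haem deficiency phosphorylate the translation factor eIF2α. General translation then slows, while the mRNA of the transcription factor ATF4 is translated better through the upstream reading frames in its leader. ATF4 activates genes for amino acid synthesis, amino acid uptake and tRNA charging, and, with CHOP (the product of Ddit3), genes that end the response or promote cell death. Levels of Atf4 mRNA therefore do not measure ATF4 protein. XBP1 belongs to the separate IRE1 branch of the unfolded protein response and is activated by splicing, which values per gene do not resolve.

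ATF4 binds, as a dimer with C/EBP proteins, to elements with the core TGATGNAA, and ATF and CREB dimers bind the palindrome TGACGTCA. All 10 genes had a promoter window in RefSeq (GRCm38.p6; 250 bases before to 50 bases after the start site, 12 windows), and both strands were searched. The core TGATGNAA was found in windows of 3 genes, Trib3, Asns and Chac1, and in 3.97% of all 32851 windows. TGACGTCA was found in 1 gene, Ppp1r15a, and in 1.79% of all windows. The ER stress response element, which ATF6 and NF-Y bind, was found in 0 of the 10 genes and in 0.119% of all windows. Stretches of the 4 promoters with a match are shown 5′ to 3′ on the gene's strand. A link between a match and the levels of these genes was not tested. Capitals mark the match. A match describes the letters and is not a measured site, and none of the 4 matches shown overlaps another searched motif.
Asns, chr6:7693210-7693359, minus strand, match on the gene's strand at −23 to −16 from the start site: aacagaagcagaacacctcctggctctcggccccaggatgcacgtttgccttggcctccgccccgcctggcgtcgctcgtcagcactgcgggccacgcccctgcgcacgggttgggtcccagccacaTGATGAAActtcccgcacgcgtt
Trib3, chr2:152344028-152344057, minus strand, match on the opposite strand at 15 to 22: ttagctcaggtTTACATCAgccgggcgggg
Chac1, chr2:119350992-119351241, plus strand, match on the opposite strand at −193 to −186: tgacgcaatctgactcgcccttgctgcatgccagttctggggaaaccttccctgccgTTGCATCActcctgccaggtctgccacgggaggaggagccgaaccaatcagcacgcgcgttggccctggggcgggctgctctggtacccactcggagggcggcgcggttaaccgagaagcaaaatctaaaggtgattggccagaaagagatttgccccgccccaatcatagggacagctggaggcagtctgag
Ppp1r15a, chr7:45526269-45526418, minus strand, palindrome at −12 to −5: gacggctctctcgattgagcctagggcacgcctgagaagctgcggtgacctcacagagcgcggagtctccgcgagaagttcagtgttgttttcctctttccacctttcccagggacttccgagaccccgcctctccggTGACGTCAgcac

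The deposited values were FPKM and summed, over genes with a unique symbol, to between 485924 and 572661 in a library. Since the files carry no read depth, intervals or floors from counts cannot be given. Between 12788 and 13810 genes per library reached 1 FPKM. The kidney label was borne out by markers of proximal tubule, thick ascending limb, collecting duct and podocytes in all 8 libraries, although Pvalb of the distal convoluted tubule was listed at 0 in 1 PKD_DMSO library and at no more than 1.16 FPKM in the other 3 PKD libraries. One library stood apart in its cell type markers. WT_FP replicate 2 had 99.43 FPKM of Ucp1, 76.77 of Cidea and 47.34 of Adipoq, which mark brown fat or adipocytes, against 0.68, 1.13 and 0.75 FPKM in WT_FP replicate 1. Across all genes, WT_FP replicate 1 correlated with WT_DMSO replicate 2 at 0.986 on the log2 scale, against 0.964 with its own partner WT_FP replicate 2. WT_FP replicate 2 likewise correlated with WT_DMSO replicate 1 at 0.979, and the 2 WT_DMSO libraries correlated at 0.969. Counts in PKD_FP against WT_FP are therefore given with and without each WT_FP library.

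The levels of the 10 genes spanned a wide range per kilobase of transcript. Atf4 and Xbp1 were the most abundant, with medians over the 8 libraries of 106 and 71.6 FPKM. Phgdh (27.2), Atf5 (26.7), Ddit3 (22.7), Psat1 (16.6), Ppp1r15a (13.9) and Asns (8.98 FPKM) formed the middle of the range. Trib3 and Chac1 were scarce, with medians of 1.04 and 0.745 FPKM, so that the 1 FPKM added before the logarithm holds their log2 fold changes down. All 10 genes passed the filter on low values (at least 1 FPKM in at least 2 libraries), as did 14391 genes in all. Chac1 passed it through the 2 PKD_DMSO libraries alone, and Trib3 through the 4 PKD libraries alone.

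**Figure D1:**
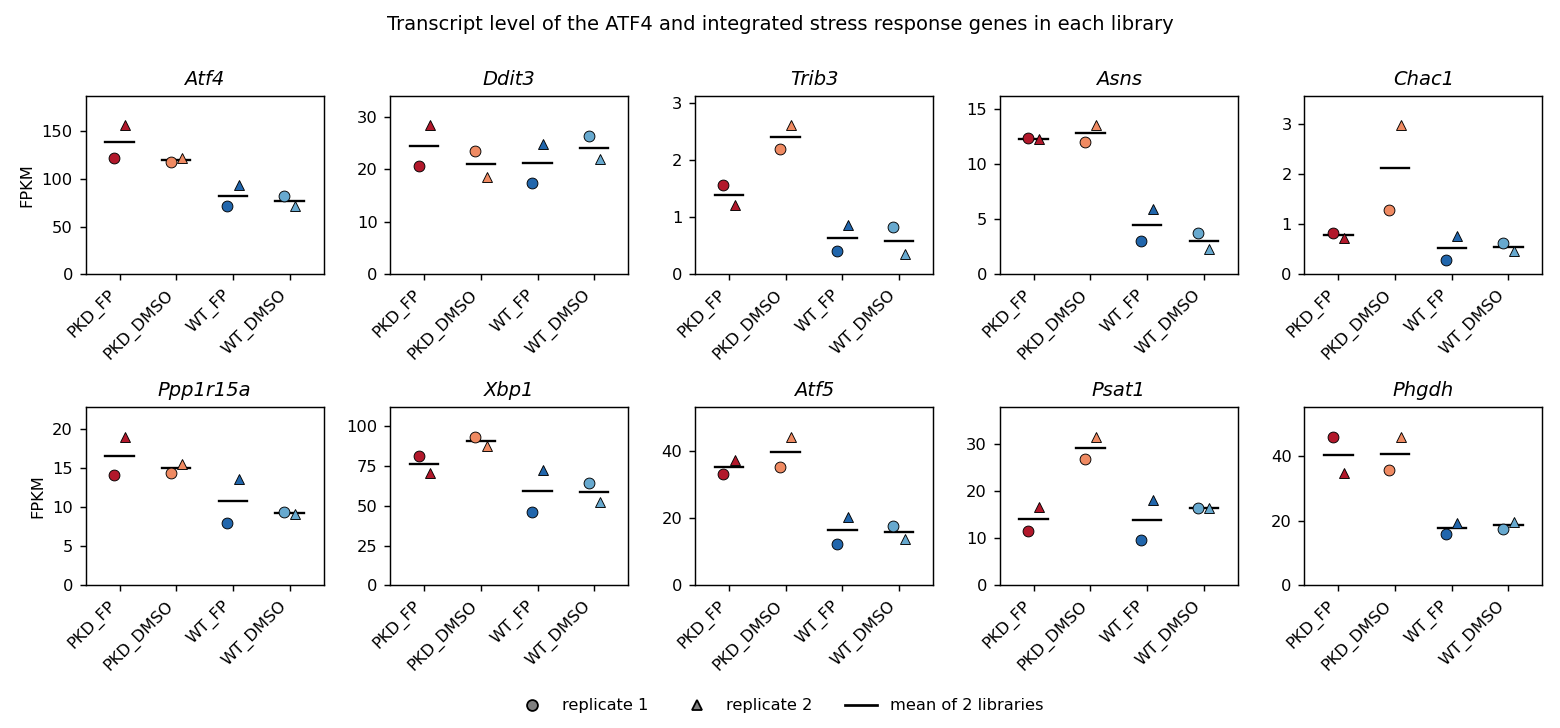
FPKM (vertical axes, each from 0) of the 10 genes in each library, by group; circles are replicate 1, triangles replicate 2, and bars the mean of 2 libraries. Asns, Atf5, Phgdh, Atf4, Ppp1r15a and Trib3 lay higher in all 4 PKD libraries than in all 4 WT libraries, Ddit3 did not separate the groups, and Psat1 was high in the 2 PKD_DMSO libraries.

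Under the solvent, the amino acid synthesis genes Asns and Phgdh and the regulators Atf5 and Trib3 rose in PKD kidneys. Differences were tested with limma on log2(FPKM + 1), with Benjamini-Hochberg adjustment over all 14391 genes and a threshold of 0.05. Of the 10 genes, 4 rose in PKD_DMSO against WT_DMSO (Asns, Atf5, Phgdh and Trib3) and 0 fell, while 14.8% of all genes rose and 7.52% fell. At an unadjusted p below 0.05 the count was 9 of 10, against 38% of all genes in either direction. In 9 of 10 genes both PKD_DMSO libraries lay above both WT_DMSO libraries, and in 0 of 10 below, against 41.2% and 24.5% of all genes. The median log2 fold change of the 10 genes was 0.88, against 0.12 over all genes tested. Trib3 and Chac1 reached the filter in PKD libraries alone, so the filter itself favoured a difference in them. Of the other 8 genes 3 rose (median 0.72), against 13.9% of the 13684 genes that reached 1 FPKM in a library of each genotype. Each of these calls was lost without PKD_DMSO replicate 2, and those of Atf5 and Trib3 also without WT_DMSO replicate 2. Fewer of all genes passed too in every fit with 1 library left out. Counts given below with 1 library left out share this limit. In those fits the log2 fold change ran from 1.53 to 2.08 for Asns and from 1.12 to 1.44 for Atf5. It ran from 0.90 to 1.26 for Phgdh and from 0.90 to 1.33 for Trib3.

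Among the transcription factors, Atf5 rose in PKD kidneys under both treatments. ATF5 is a bZIP factor closely related to ATF4, whose own mRNA is also translated better when eIF2α is phosphorylated, and it is linked to the mitochondrial stress response. Atf5 (chromosome 7, 44812256 to 44816658 in GRCm38) had 33.09 and 37.08 FPKM in PKD_FP, 35.07 and 44.18 in PKD_DMSO, 12.41 and 20.33 in WT_FP, and 17.59 and 13.85 in WT_DMSO. All 4 PKD libraries lay above all 4 WT libraries, and the lowest PKD value was well clear of the highest WT value. The mean was 39.6 ± 6.44 FPKM in PKD_DMSO and 15.7 ± 2.64 in WT_DMSO (SD, n = 2 each), a log2 fold change of 1.28 ± 0.25 (SE; limma, adjusted p = 0.017, from 0.0026 to 0.12 over the alternatives). Exons of Atf5 overlap those of Il4i1 and Nup62 on the opposite strand (82 bp at most in GENCODE M21). The sources used here do not say whether counting used the strand, so reads of those genes and of Atf5 cannot be told apart in the overlap.

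Atf4 itself lay close to the threshold, past it under flavopiridol and short of it under the solvent. Atf4 (chromosome 15, 80255184 to 80257545) had 122.23 and 156.35 FPKM in PKD_FP, 117.97 and 122.15 in PKD_DMSO, 71.22 and 93.26 in WT_FP, and 82.28 and 71.26 in WT_DMSO. The PKD and WT libraries did not overlap. Its log2 fold change was 0.64 ± 0.20 in PKD_DMSO against WT_DMSO (limma, adjusted p = 0.059, from 0.014 to 0.25 over the alternatives) and 0.76 ± 0.20 in PKD_FP against WT_FP (adjusted p = 0.049, from 0.011 to 0.24). The first passed the threshold after quantile normalization (0.79) and after rescaling to TPM (0.84). The second was lost under 15 of its 18 alternatives, leaving out any 1 library among them.

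Ddit3 encodes CHOP, the factor downstream of ATF4 that is tied to cell death in prolonged stress. Ddit3 (chromosome 10, 127290793 to 127296291) had 20.64 and 28.36 FPKM in PKD_FP, 23.52 and 18.48 in PKD_DMSO, 17.38 and 24.82 in WT_FP, and 26.26 and 21.94 in WT_DMSO. The groups overlapped throughout. Its log2 fold change was −0.19 ± 0.24 in PKD_DMSO against WT_DMSO (95% interval −0.77 to 0.38; limma, adjusted p = 0.589), and 0.21 in PKD_FP against WT_FP. The interval does not reach the fold changes of Asns, Atf5, Phgdh or Trib3 in the same comparison, but the difference between genes was not tested. Exons of Ddit3 overlap those of Mars, which encodes the methionyl-tRNA synthetase, on the opposite strand (68 bp), and those of Gm4189.

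Xbp1 encodes the factor that the endonuclease IRE1 activates by splicing. Xbp1 (chromosome 11, 5520641 to 5525993) had 81.07 and 70.83 FPKM in PKD_FP, 93.44 and 87.38 in PKD_DMSO, 45.86 and 72.43 in WT_FP, and 64.24 and 52.59 in WT_DMSO. The PKD_DMSO libraries held the 2 highest values, and PKD_FP and WT_FP overlapped through WT_FP replicate 2. The log2 fold change of 0.63 ± 0.24 in PKD_DMSO against WT_DMSO missed the threshold (limma, adjusted p = 0.0995), as did 0.39 in PKD_FP against WT_FP (0.309). The first passed it after rescaling to TPM (0.83).

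Of 2 feedback genes of the response, Trib3 rose in PKD kidneys under the solvent and Ppp1r15a did not pass the threshold. TRIB3 is a pseudokinase that binds ATF4 and AKT and restrains ATF4 activity. Trib3 (chromosome 2, 152337425 to 152344060) had 1.56 and 1.21 FPKM in PKD_FP, 2.20 and 2.61 in PKD_DMSO, 0.41 and 0.86 in WT_FP, and 0.82 and 0.35 in WT_DMSO. The PKD_DMSO libraries were highest, the PKD_FP libraries came between, and every WT library was below 1 FPKM. Trib3 rose by 1.12 ± 0.25 on the log2 scale in PKD_DMSO against WT_DMSO (limma, adjusted p = 0.023, from 0.011 to 0.14 over the alternatives), and the ratio of the mean FPKM values was 4.11. It reached the filter on low values in the PKD libraries alone, so the filter itself favoured this rise. Ppp1r15a encodes GADD34, which directs protein phosphatase 1 to eIF2α and so ends the response. Ppp1r15a (chromosome 7, 45522917 to 45526268) had 14.17 and 19.08 FPKM in PKD_FP, 14.38 and 15.59 in PKD_DMSO, 7.94 and 13.68 in WT_FP, and 9.46 and 9.17 in WT_DMSO. Its PKD and WT libraries did not overlap, yet the log2 fold change of 0.63 ± 0.26 in PKD_DMSO against WT_DMSO did not pass (limma, adjusted p = 0.122, from 0.043 to 0.377 over the alternatives). It passed under 1 of 18 alternatives, a replicate block added after seeing the data.

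Asns had the largest log2 fold change of the 10 genes in both PKD against WT comparisons. Asparagine synthetase, its product, makes asparagine from aspartate and glutamine and is a textbook target of ATF4. Asns (chromosome 6, 7675165 to 7693209) had 12.38 and 12.28 FPKM in PKD_FP, 12.07 and 13.54 in PKD_DMSO, 2.97 and 5.89 in WT_FP, and 3.77 and 2.25 in WT_DMSO. The 4 PKD libraries lay close together, above the WT libraries, of which WT_FP replicate 2 was the highest. The mean was 12.8 ± 1.04 FPKM in PKD_DMSO and 3.01 ± 1.07 in WT_DMSO (SD, n = 2 each), a ratio of 4.25 and a log2 fold change of 1.81 ± 0.30 (adjusted p = 0.010 with limma, from 0.0026 to 0.077 over the alternatives).

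Chac1 encodes a glutathione-degrading enzyme induced by ATF4 and CHOP. Chac1 (chromosome 2, 119351242 to 119354326) had 0.83 and 0.73 FPKM in PKD_FP, 1.29 and 2.98 in PKD_DMSO, 0.29 and 0.76 in WT_FP, and 0.63 and 0.46 in WT_DMSO. The PKD_DMSO libraries were the highest, and they differed from each other by 0.80 on the log2 scale. The log2 fold change of 0.97 ± 0.31 in PKD_DMSO against WT_DMSO did not pass (limma, adjusted p = 0.064), and passed after rescaling to TPM (1.36).

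Of 2 enzymes of serine synthesis, Phgdh rose in PKD kidneys under both treatments and Psat1 passed the threshold under neither. PHGDH commits the glycolytic intermediate 3-phosphoglycerate to serine synthesis, and PSAT1 performs the next step. Phgdh (chromosome 3, 98313171 to 98339969) had 46.01 and 34.72 FPKM in PKD_FP, 35.52 and 45.80 in PKD_DMSO, 15.90 and 19.27 in WT_FP, and 17.56 and 19.59 in WT_DMSO. Every PKD library lay above every WT library, and the treatments overlapped within PKD. Its mean was 40.7 ± 7.27 FPKM in PKD_DMSO and 18.6 ± 1.44 in WT_DMSO (SD, n = 2 each), a log2 fold change of 1.08 ± 0.20 (adjusted p = 0.014 with limma, from 0.0076 to 0.11 over the alternatives). GENCODE M21 lists a pseudogene of Phgdh, whose reads the counting could have shared. Psat1 (chromosome 19, 15905123 to 15925059) had 11.49 and 16.75 FPKM in PKD_FP, 26.95 and 31.65 in PKD_DMSO, 9.69 and 18.26 in WT_FP, and 16.51 and 16.41 in WT_DMSO. The 2 PKD_DMSO libraries stood above the other 6, which overlapped. Its log2 fold change in PKD_DMSO against WT_DMSO was 0.79 ± 0.30 (limma, adjusted p = 0.103), and it passed when the 2 groups were fitted alone or without either WT_FP library.

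**Figure D2:**
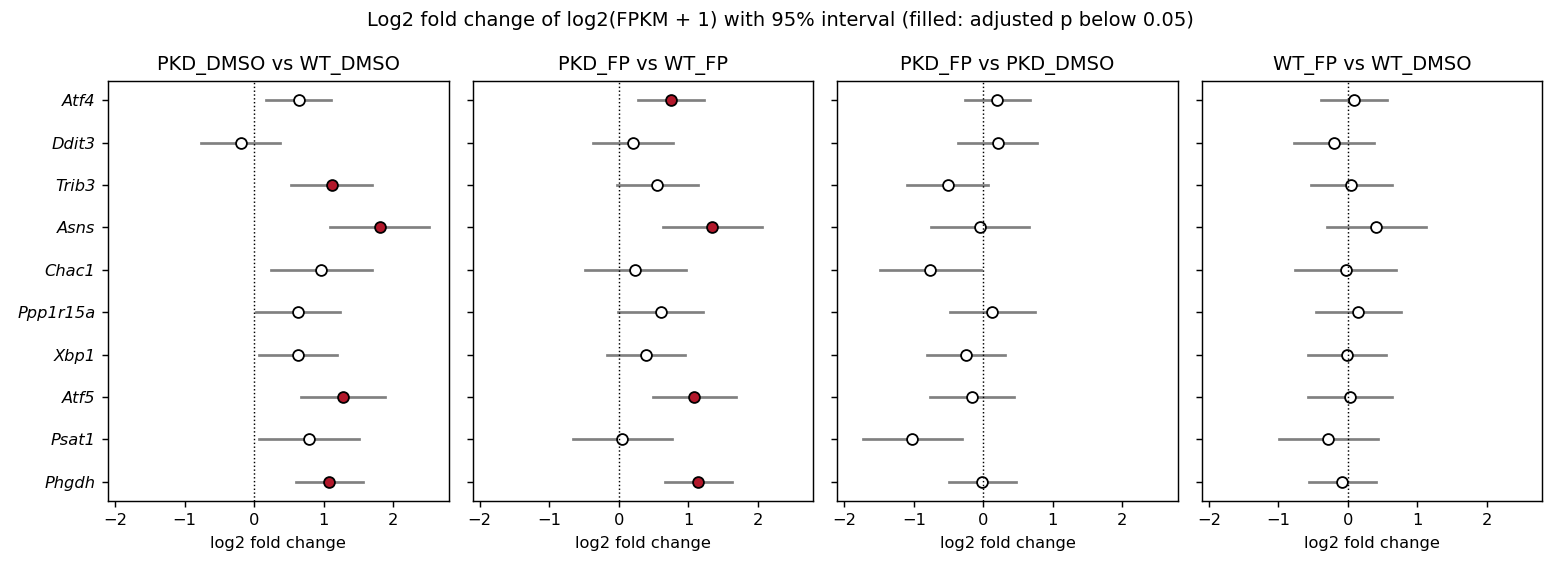
Log2 fold change of log2(FPKM + 1) for the 10 genes in 4 comparisons, first-named group over the other, with 95% intervals from limma (horizontal axes, log2 scale); filled points had an adjusted p below 0.05. In PKD_DMSO against WT_DMSO 9 genes lie right of 0 with Asns at 1.81, and in PKD_FP against PKD_DMSO the interval of Psat1 lies left of 0 at −1.73 to −0.31 without passing the adjusted threshold.

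With flavopiridol in both arms, Asns, Phgdh and Atf5 rose in PKD kidneys, and Atf4 just passed the threshold. In PKD_FP against WT_FP, 4 of the 10 genes rose (Phgdh, Asns, Atf5 and Atf4) and 0 fell, while 8.71% of all genes rose and 5.23% fell. The fold changes were 1.15 ± 0.20 for Phgdh (limma with Benjamini-Hochberg, adjusted p = 0.019), 1.35 ± 0.30 for Asns (0.032) and 1.09 ± 0.25 for Atf5 (0.037). Trib3 changed by 0.55 ± 0.25 (adjusted p = 0.178), Chac1 by 0.24 and Psat1 by 0.05, none past the threshold. At an unadjusted p below 0.05 the count was 4 of 10, against 31.4% of all genes. In 6 of 10 genes the PKD_FP libraries lay above the WT_FP libraries, as in 34.6% of all genes, and the median log2 fold change was 0.58 against 0.07. Trib3 was among the 6, and the filter favoured a rise in it, since it reached the filter in PKD libraries alone. Of the 8 genes that reached 1 FPKM in a library of each genotype 4 rose, against 8.16% of all such genes. Without WT_FP replicate 2, the library with the adipocyte markers, 3 of 10 genes passed (Asns 1.75, Atf5 1.43, Phgdh 1.28). Without WT_FP replicate 1, PKD_FP replicate 1 or PKD_FP replicate 2, 0 of 10 passed with limma, with 4, 5 and 4 at an unadjusted p below 0.05. Without either PKD_DMSO library, which enter only the shared spread and the filter on low values, 1 of 9 passed, Phgdh. Over all 18 alternatives Phgdh passed in 15, Asns and Atf5 in 10 each and Atf4 in 3.

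Over both treatments, all 4 PKD libraries lay above all 4 WT libraries in 6 of the 10 genes, Atf4, Atf5, Trib3, Ppp1r15a, Asns and Phgdh. The same held in 22% of all genes tested. Trib3 reached the filter on low values in the PKD libraries alone, so the filter itself favoured this order in it. The comparisons of PKD_FP with WT_FP and of PKD_DMSO with WT_DMSO use separate libraries but 1 estimate of the spread, and the 3 genes that passed in both were Asns, Atf5 and Phgdh. The order of the group means was PKD_DMSO, PKD_FP, WT_FP and WT_DMSO, from high to low, for Trib3, Asns, Xbp1 and Atf5. For Atf4, Ppp1r15a and Ddit3 the PKD_FP mean was above that of PKD_DMSO, which for Ddit3 was the lowest. For Chac1, Phgdh and Psat1 the WT_FP mean was the lowest. Psat1 was the only one of the 10 in which the PKD_FP mean (14.1 ± 3.72 FPKM) lay below the WT_DMSO mean (16.5 ± 0.0707 FPKM; SD, n = 2 each). Neighbours in these orders that share a genotype did not differ past the threshold for any of the 10 genes.

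Setting the drug against the solvent asks what flavopiridol changed, and in PKD kidneys 0 of the 10 genes passed the adjusted threshold. The test made few calls at all in this comparison: 1 gene rose and 1 fell in all (0.00695% each), and 19.5% of genes had an unadjusted p below 0.05. Psat1 and Chac1 were the 2 of 10 below that unadjusted threshold, a share near that of all genes. Psat1 had 11.49 and 16.75 FPKM in PKD_FP against 26.95 and 31.65 FPKM in PKD_DMSO, a ratio of means of 0.482 and a log2 fold change of −1.02 ± 0.30 (95% interval −1.73 to −0.31; limma, adjusted p = 0.161, from 0.056 to 0.56 over the alternatives). Chac1 had 0.83 and 0.73 FPKM in PKD_FP against 1.29 and 2.98 FPKM in PKD_DMSO, a log2 fold change of −0.76 ± 0.31 (adjusted p = 0.240). Chac1 reached the filter on low values in the PKD_DMSO libraries alone, so the filter itself favoured a fall in it. The PKD_FP libraries lay below the PKD_DMSO libraries in 4 genes (Trib3, Chac1, Xbp1 and Psat1) and above them in 1 (Atf4), against 25.2% and 31.4% of all genes. Trib3 changed by −0.51 ± 0.25 (adjusted p = 0.304) and Xbp1 by −0.25. For Asns the change was −0.05 (95% interval −0.76 to 0.66) and for Phgdh −0.01 (−0.49 to 0.47), intervals that still allow a change of some size either way. The median over the 10 genes was −0.11, against 0.04 over all genes.

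In WT kidneys flavopiridol was followed by no change past the threshold in any gene tested with limma, the 10 genes included (0 of 14391), and 183 genes (1.27%) had an unadjusted p below 0.05, of which 0 were among the 10. The groups overlapped in all 10 genes, while WT_FP lay above WT_DMSO in 16.6% of all genes and below it in 5.32%. The log2 fold changes ran from −0.28 (Psat1) to 0.41 (Asns). Their median was 0.01, against 0.09 over all genes.

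The test of whether the drug acted differently in PKD and WT kidneys, the interaction of genotype and drug, passed for 0 of all genes with limma, and 11.2% had an unadjusted p below 0.05. Of the 10 genes, 0 reached that. The interaction was −0.74 ± 0.42 for Psat1 (adjusted p = 0.562), −0.73 ± 0.43 for Chac1 and −0.56 ± 0.35 for Trib3, the 3 lowest of the 10, and 0.40 ± 0.34 for Ddit3, the highest. A difference in drug effect between the genotypes was therefore not detected for any of the 10 genes with 2 libraries a group. For any 1 gene taken alone, the smallest two-sided p from exact permutation of 2 against 2 libraries is 0.33.

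The spread between libraries of a group was shared by the 10 genes in WT_FP. In that group all 10 were higher in replicate 2, the library with the adipocyte markers, by 0.26 (Phgdh) to 0.85 (Psat1) on the log2 scale. The median difference was 0.57, against 0.12 over all genes, of which 64.6% were higher in replicate 2. In WT_DMSO 1 of 10 was higher in replicate 2 (Phgdh), with a median difference of −0.23 against −0.16 over all genes, of which 33.4% were higher. In PKD_DMSO 8 of 10 were higher in replicate 2, against 50.6% of all genes (median 0.16 against 0.005). In PKD_FP 5 of 10 were, near the 58.0% of all genes (0.07 against 0.07). Other cell types also differed between the WT_FP libraries. Of 19 proximal tubule markers, 17 were lower in replicate 2, and those other than Kap summed to 4313 FPKM in replicate 2 and 7880 in replicate 1. All 9 fibroblast and all 8 endothelial markers were higher in replicate 2, and Aqp2 of the collecting duct had 1344 FPKM in replicate 2 and 386 in replicate 1. Such differences were not particular to WT_FP. Fibroblast markers summed, replicate 1 first, to 284 and 378 FPKM in WT_FP and 390 and 146 in WT_DMSO. They summed to 661 and 1327 in PKD_DMSO and 978 and 1852 in PKD_FP. Endothelial markers summed to 146 and 257 FPKM in WT_FP, 222 and 119 in WT_DMSO, 47.9 and 135 in PKD_DMSO, and 102 and 140 in PKD_FP. The 7 adipocyte markers summed to 145 to 374 FPKM in PKD_FP, 148 to 241 in PKD_DMSO, 186 to 1611 in WT_FP and 113 to 285 in WT_DMSO. Most of each sum was Fabp4, which endothelium also expresses. The other 6 summed to 6.61 and 63.3 FPKM in PKD_FP, 52.0 and 60.0 in PKD_DMSO, 5.10 and 465.6 in WT_FP, and 4.49 and 2.63 in WT_DMSO, so that all 4 PKD libraries held more of them than the 3 WT libraries other than WT_FP replicate 2. The part of these cell types in the levels of the 10 genes was not tested.

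**Figure D3:**
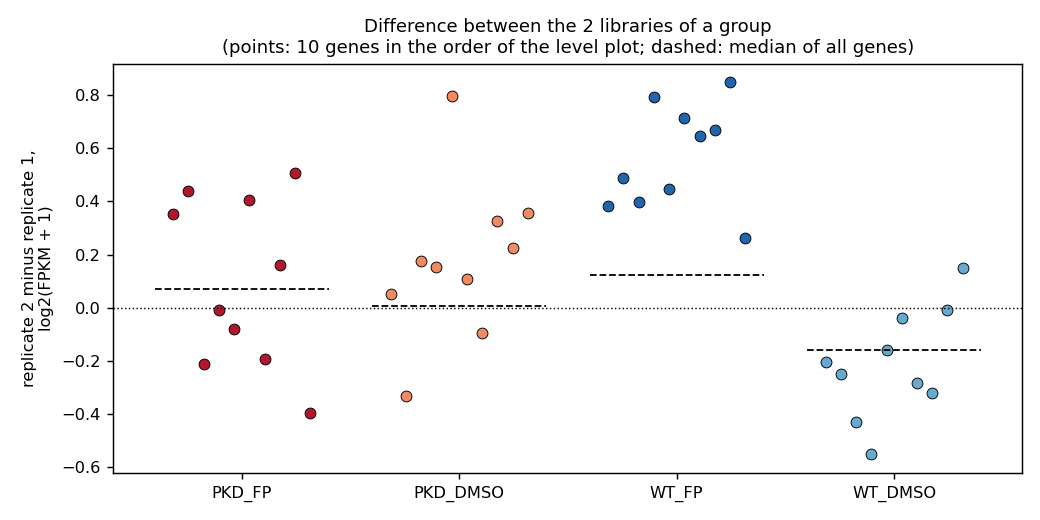
Difference between replicate 2 and replicate 1 in log2(FPKM + 1) (vertical axis) for the 10 genes in each group, with the median of all genes tested as a dashed line. All 10 points of WT_FP lie above 0, between 0.26 and 0.85, whereas the other groups have points on both sides of 0.

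The cell types of the kidney also shifted between PKD and WT, and whole-tissue RNA does not separate a change in the number of cells from a change in RNA per cell. Proximal tubule markers summed to 4803 and 5600 FPKM in PKD_FP and to 2763 and 4992 in PKD_DMSO, against 23355 and 23983 in WT_FP and 33248 and 34215 in WT_DMSO. The single gene Kap made up 44.2% to 82.0% of each sum, and the other 18 markers summed to 1763 and 1300 FPKM in PKD_FP and to 2295 and 1542 in PKD_DMSO, against 7880 and 4313 in WT_FP and 6548 and 8360 in WT_DMSO. Of the 19 markers, 12 fell in PKD_DMSO against WT_DMSO and 12 in PKD_FP against WT_FP, against 7.52% and 5.23% of all genes. Macrophage and myeloid markers summed to 707 to 963 FPKM in PKD_FP, 702 to 1372 in PKD_DMSO, 134 to 142 in WT_FP and 84.4 to 136 in WT_DMSO, and 11 of 12 rose in PKD_DMSO against WT_DMSO. Fibroblast markers summed to 978 to 1852 FPKM in PKD_FP, 661 to 1327 in PKD_DMSO, 284 to 378 in WT_FP and 146 to 390 in WT_DMSO. Erythroid markers summed to 949 to 971 FPKM in PKD_FP, 203 to 285 in PKD_DMSO, 1582 to 1705 in WT_FP and 1685 to 1841 in WT_DMSO. Markers of the thick ascending limb and distal convoluted tubule were also lower in PKD. They summed to 1464 to 1487 FPKM in PKD_FP, 1104 to 1138 in PKD_DMSO, 2404 to 2785 in WT_FP and 2254 to 2581 in WT_DMSO. These sums separate PKD from WT libraries as Asns, Atf5 and Phgdh do, and their part in the levels of those genes was not tested.

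Other known targets of ATF4 rose more often than they fell. This list and those below were chosen with earlier results of these data known, so their shares are not independent of these data. Of 27 tested among 30 listed, 11 rose and 1 fell in PKD_DMSO against WT_DMSO (14.8% and 7.52% of all genes), and the median log2 fold change was 0.80, against 0.12 over all genes. Fgf21, Slc7a11 and Aldh1l2 stayed below the filter on low values. Aldh18a1, the first enzyme of proline synthesis from glutamate, had 6.90 and 6.64 FPKM in PKD_FP, 6.06 and 7.93 in PKD_DMSO, 2.06 and 2.20 in WT_FP, and 2.04 and 1.19 in WT_DMSO, a log2 fold change of 1.62 ± 0.22 (adjusted p = 0.0057 with limma). Mthfd2, a mitochondrial enzyme of the folate cycle, had 12.64 and 12.71 FPKM in PKD_FP, 9.20 and 9.66 in PKD_DMSO, 3.99 and 3.80 in WT_FP, and 3.88 and 3.52 in WT_DMSO, a log2 fold change of 1.15 ± 0.14 (adjusted p = 0.0045). Both separated PKD from WT without overlap. The stress cytokine Gdf15 (3.25 ± 0.23) and the transcription factor Atf3 (2.98 ± 0.28) rose further than any of the 10 genes. The other 7 that rose were the C/EBP factors Cebpb and Cebpg, the translation repressor Eif4ebp1 and the amino acid transporters Slc1a4, Slc38a2, Slc7a1 and Slc7a5. Under flavopiridol, PKD_FP against WT_FP, 7 of 27 rose and 3 fell (8.71% and 5.23% of all genes), with a median of 0.40 against 0.07 over all genes. These became 3 and 0 without WT_FP replicate 1 or either PKD_FP library, 7 and 2 without WT_FP replicate 2, and 5 and 1 without either PKD_DMSO library. Of the 27, 7 rose in PKD_DMSO against WT_DMSO without PKD_DMSO replicate 1 and 4 without PKD_DMSO replicate 2.

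Enzymes that use and interconvert serine fell more often than they rose. Of 22 tested enzymes of serine, glycine and one-carbon metabolism, 2 rose and 7 fell in PKD_DMSO against WT_DMSO, against 14.8% and 7.52% of all genes, with a median of −0.73. Mthfd2 and the mitochondrial formate enzyme Mthfd1l (1.35 ± 0.18; limma, adjusted p = 0.0055) rose. Shmt2, the mitochondrial enzyme that converts serine to glycine and itself an ATF4 target, had 44.57 and 38.91 FPKM in PKD_FP, 47.39 and 39.84 in PKD_DMSO, 121.51 and 82.17 in WT_FP, and 97.52 and 110.67 in WT_DMSO. It fell by 1.24 ± 0.22 on the log2 scale (adjusted p = 0.012), the opposite direction to Mthfd2. Gamt, the last enzyme of creatine synthesis, fell by 2.01 ± 0.24 (adjusted p = 0.0043), and Cbs, Gatm, Srr and Tyms were among the others that fell. With the drug in both arms, 2 rose and 3 fell (Shmt2, Cbs and Cth), against 8.71% and 5.23% of all genes, with a median of −0.80. The 3 that fell became 6 without WT_FP replicate 2, 1 without either PKD_DMSO library, and 0 without WT_FP replicate 1 or either PKD_FP library, and these last 3 settings left 1 that rose. The 7 that fell under the solvent became 4 without WT_DMSO replicate 1 or PKD_DMSO replicate 1, 2 without WT_DMSO replicate 2 and 1 without PKD_DMSO replicate 2. The fall of proximal tubule markers given above runs in the same libraries, and its part in these values was not tested.

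Of the 20 cytosolic aminoacyl-tRNA synthetases, the enzymes that charge tRNA with amino acids, 5 rose and 0 fell in PKD_DMSO against WT_DMSO (14.8% and 7.52% of all genes), with a median of 0.39. They were Tars (0.82 ± 0.14; limma, adjusted p = 0.011), Vars (0.94 ± 0.18; 0.014), Iars (1.08 ± 0.22; 0.017), Qars (0.54 ± 0.12; 0.025) and Lars. Of the 20, 2 rose in PKD_FP against WT_FP, Tars (0.83 ± 0.14; adjusted p = 0.017) and Vars (0.72 ± 0.18; 0.042), a share near the 8.71% of all genes. In that comparison 0 rose without WT_FP replicate 1 or either PKD_FP library, and 1 without WT_FP replicate 2, WT_DMSO replicate 2 or either PKD_DMSO library. Leaving out either WT_DMSO library gave 2 that rose under the solvent, leaving out PKD_DMSO replicate 1 gave 1, and leaving out PKD_DMSO replicate 2 gave 0. Iars and Qars were also lost after median-of-ratios scaling.

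Upstream of ATF4, Eif2ak3 encodes PERK, the eIF2α kinase of the endoplasmic reticulum. Of 12 eIF2α kinases and partners of the eIF2α phosphatase, 2 rose and 0 fell in PKD_DMSO against WT_DMSO, 16.7% against 14.8% of all genes, so this share is near the background. Eif2ak3 had 10.08 and 11.96 FPKM in PKD_FP, 12.86 and 12.99 in PKD_DMSO, 7.51 and 8.99 in WT_FP, and 6.42 and 7.80 in WT_DMSO, a log2 fold change of 0.79 ± 0.17 (adjusted p = 0.021 with limma). Ppp1cb, a catalytic subunit of protein phosphatase 1, rose by 0.75 ± 0.15 (adjusted p = 0.018). Of 9 subunits of eIF2 and of its exchange factor eIF2B, 1 rose, Eif2s3x (0.61 ± 0.17; adjusted p = 0.044), a call that 13 of the 18 alternatives did not keep. Eif2ak3 and Ppp1cb were lost without WT_DMSO replicate 1 or either PKD_DMSO library. Between PKD_FP and WT_FP, 0 of the 12 and 0 of the 9 passed with limma, against 13.9% of all genes in either direction.

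Among 31 endoplasmic reticulum chaperones and genes of the IRE1 and ATF6 branches, 3 rose and 1 fell in PKD_DMSO against WT_DMSO, against 14.8% and 7.52% of all genes, with a median of 0.21 against 0.12. These shares are no larger than those of all genes. Ern1, which encodes the IRE1α that splices Xbp1, had 0.65 and 0.43 FPKM in PKD_FP, 2.87 and 4.47 in PKD_DMSO, 1.44 and 1.5 in WT_FP, and 0.82 and 1.05 in WT_DMSO. It rose by 1.25 ± 0.23 in PKD_DMSO against WT_DMSO (limma, adjusted p = 0.013). In PKD_FP against PKD_DMSO its change was −1.58 ± 0.23 (adjusted p = 0.124), with both PKD_FP libraries the lowest of the 8. Ero1l, an oxidase of the reticulum (0.68 ± 0.14; adjusted p = 0.019), and Mbtps2, a protease that releases ATF6 (0.64 ± 0.17; 0.041), also rose. Derl3, of the degradation machinery, fell by 0.97 ± 0.18 (0.014), but it reached the filter only in the WT_DMSO libraries, so the filter favoured a fall. The solvent count of 3 became 0 without WT_DMSO replicate 1 or PKD_DMSO replicate 2, 1 without PKD_DMSO replicate 1 and 2 without any 1 of the 4 flavopiridol libraries. Between PKD_FP and WT_FP the 4 that rose were Hsp90b1, Manf, Pdia4 and Sec61b, and Herpud1 fell, against 8.71% and 5.23% of all genes. The 4 became 3 without either WT_DMSO library, 2 without either PKD_DMSO library, 1 without WT_FP replicate 2 or either PKD_FP library, and 0 without WT_FP replicate 1. With 1 library left out, Herpud1 was kept only where that library was from WT_DMSO.

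Of 22 tested factors of the CREB, ATF and C/EBP families, with which ATF4 dimerizes or shares elements, 9 rose and 0 fell in PKD_DMSO against WT_DMSO (14.8% and 7.52% of all genes), with a median of 0.59. Beside Atf3, Cebpb and Cebpg of the target list, they were Nfil3 (1.27 ± 0.21; limma, adjusted p = 0.0094), Atf1 (0.74 ± 0.16; 0.020), Batf (0.98 ± 0.23; 0.025), Atf7, Cebpd and Creb3l2. Batf reached the filter in PKD libraries alone, where the filter favoured a rise, and of the other 21 factors 8 rose. The 9 became 5 without WT_DMSO replicate 1 or either WT_FP library, 4 without either PKD_FP library, 3 without WT_DMSO replicate 2 or PKD_DMSO replicate 1, and 1 without PKD_DMSO replicate 2. Between PKD_FP and WT_FP, 3 rose (Atf3, Batf and Cebpb) and 1 fell (Crebl2), against 8.71% and 5.23% of all genes. Of the 21 factors other than Batf 2 rose (9.52%), near the 8.16% of all genes that reached the filter value in both genotypes. The 3 became 5 without either WT_DMSO library, 2 without WT_FP replicate 2 or either PKD_DMSO library, and 1 without WT_FP replicate 1 or either PKD_FP library, and with 1 library left out Crebl2 was kept only where that library was from WT_DMSO. In the 2 comparisons of flavopiridol with DMSO, 0 genes of all 7 lists passed with limma. The lists share genes, such as Mthfd2, Shmt2 and Atf3, so their counts are not independent.

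**Figure D4:**
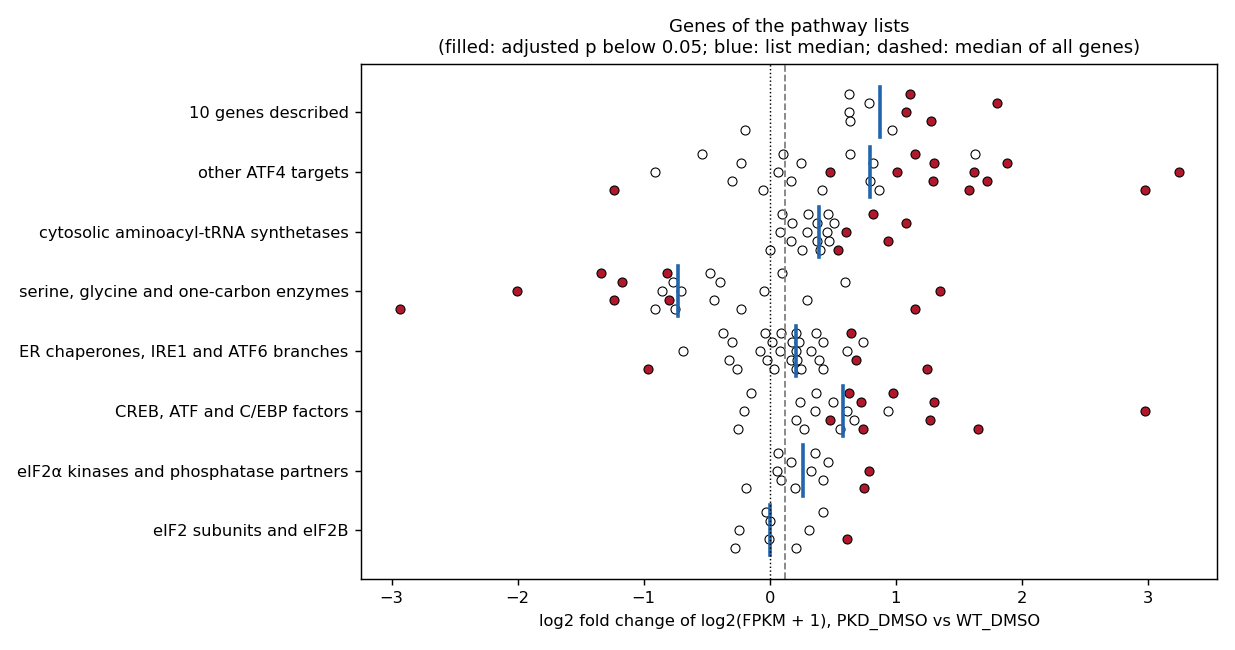
Log2 fold change of log2(FPKM + 1) in PKD_DMSO against WT_DMSO (horizontal axis) for each tested gene of the 10 and of 7 pathway lists (rows); filled points had an adjusted p below 0.05, blue bars are list medians, and the dashed line is the median of all genes (0.12). The medians of the 10 genes (0.88) and of other ATF4 targets (0.80) lie farthest to the right, and that of the serine and one-carbon enzymes (−0.73) lies left of 0.

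The genes whose pattern over the 8 libraries was most like that of each of the 10 were found by the root-mean-square difference of centred log2(FPKM + 1), among 12556 candidates. A value of 0 means the same profile on this scale, on which the added 1 FPKM flattens the profiles of the scarce Trib3 and Chac1. For Atf4 these were Ccnjl (0.0519), Rab12 (0.0602) and Ybx3 (0.0602), and the nearest of the other 9 was Ppp1r15a (0.108). For Asns they were Anxa2 (0.131), Map3k1 and Ptrf, and the nearest of the 10 was Atf5 (0.258). Atf5 was most like Fam49b (0.0894), Map4 and Tmem43, Phgdh like Chpf (0.113), Rplp0 and Rps4x, and Trib3 like Ammecr1 (0.066), Apoe and Trpm4. For Psat1 the nearest were Dock1 (0.199), Itga2 and Mpzl3, and for Chac1 Uba6 (0.137), Btbd7 and Slc11a1. Ppp1r15a was most like Epb41l4a (0.0727), Zfp703 and Ano6, Xbp1 like G6pdx (0.102), B3glct and Tax1bp3, and Ddit3 like Stk38 (0.104), Idnk and Rsrc1. Ddit3 was the farthest of the 10 from its nearest partner among them, Xbp1 (0.351). For each of the 10, the 3 named genes lay nearer than any of the other 9, though they were drawn from far more candidates.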

How the data were processed

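Poly(A)-selected RNA of whole kidneys was sequenced in 8 libraries, 2 for each of PKD_FP, PKD_DMSO, WT_FP and WT_DMSO, and extraction used TRIzol, per the labels' protocols. The authors deposited FPKM values without naming the unit in a header. FPKM was inferred from the deposited values, which are not whole and whose sum of value times transcript length varied by a ratio of 1.05 between libraries. The submitters' processing notes name Bowtie2, DESeq2 and mm10, with neither a version nor a role. Counting tool, gene lengths, strand setting and read numbers are not stated in the sources used here.

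The deposited FPKM were turned into log2(FPKM + 1), and a gene was kept if 2 or more libraries had 1 FPKM or more. The filter left 14391 of 20245 entries, after 5 entries with a duplicated symbol or a dash were left out. A mean for each of 4 groups was fitted to the 8 libraries in limma 3.58.1 under R 4.3.3 (empirical Bayes with trend and robust). P-values are two-sided, with Benjamini-Hochberg adjustment across the 14391 genes and a threshold of 0.05. The fit was also run on simulated data with log2 changes of 1 and 2 put into PKD_DMSO. It estimated these changes close to their size and called most of the larger ones but none of the smaller. Far fewer genes were changed there than were called between PKD_DMSO and WT_DMSO, so the adjusted threshold was harder to pass. The simulated shares therefore do not measure what the fit can detect in these data. Fold changes understate changes of low genes, because 1 FPKM is added. Contrasts were PKD_DMSO vs WT_DMSO, PKD_FP vs WT_FP, PKD_FP vs PKD_DMSO, WT_FP vs WT_DMSO and the interaction.

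The 10 genes, the gene lists and the tests were chosen with earlier results of these data known. Named were the 10 genes, up to 4 genes per pathway list with the smallest p in PKD_DMSO vs WT_DMSO, and the 3 genes most like each of the 10. Most other list genes past the threshold are named to complete a count, 1 is not reported here by name, and the adipocyte markers were chosen for mention after seeing their values. Coordinates and promoter sequences are from RefSeq (GRCm38.p6), exon overlaps from GENCODE M21. Alternatives were no filter or a stricter one (2 FPKM in 4 libraries), a pseudocount of 0.1, other scalings, moderation without trend and robust, a replicate block, only the groups compared, and leaving out each library.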

Additional observations from a re-analysis of the deposited data

How the results depend on the processing

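Of the 10 genes, 4 rose in PKD_DMSO against WT_DMSO, 7 after rescaling to TPM and 3 to 5 under the other alternatives named at the outset. Leaving out 1 library gave 0 to 5. In PKD_FP against WT_FP 4 rose, 3 or 4 under other scalings, moderation, pseudocount and the stricter filter, and 1 (Phgdh) without a filter on low values and with only the groups compared. Leaving out 1 library gave 0 to 3. In the comparisons of drug with solvent and in the interaction, 0 of the 10 passed under every alternative. Over all genes the number that rose in PKD_DMSO against WT_DMSO was 2130, 1408 to 3488 under the alternatives and 348 to 1889 with 1 library left out. In PKD_FP against WT_FP it was 1254, then 640 to 2184 and 131 to 1155. Rescaling to TPM moved the median of all genes by 0.19 in PKD_DMSO against WT_DMSO, by −0.14 in PKD_FP against PKD_DMSO and by −0.21 in the interaction, and median-of-ratios scaling and quantile normalization moved the first by −0.13. With all libraries kept, the pathway lists ranged in PKD_DMSO against WT_DMSO from 9 to 15 for ATF4 targets that rose, 2 to 12 for synthetases, 1 to 7 for endoplasmic reticulum genes, 4 to 13 for CREB, ATF and C/EBP factors, 1 to 3 for eIF2α kinases and partners and 0 to 3 for eIF2 and eIF2B, and from 5 to 11 for serine enzymes that fell. In PKD_FP against WT_FP these were 4 to 11, 0 to 2, 1 to 7, 2 to 6, 0, 0 to 1 and 1 to 13. The causes were not tested. Trib3 and Chac1 gave no value under the stricter filter.

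The replicate numbers do not pair the samples: deviations of same-numbered libraries correlated from −0.515 to 0.485, and the labels name no shared animal or batch. With the replicate number as a block, 4 of the 10 genes rose in PKD_DMSO against WT_DMSO and 1 (Phgdh) in PKD_FP against WT_FP. With the 2 WT_DMSO numbers crossed, an alternative chosen after seeing the data, the block gave 8 and 4, and 13 serine and one-carbon enzymes that fell in PKD_FP against WT_FP, against 3.

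Values that changed sign were all short of the threshold. Rescaling to TPM turned Ppp1r15a to −0.027 in PKD_FP against PKD_DMSO, Xbp1 to 0.051 in WT_FP against WT_DMSO, and Atf4 to −0.11 and Phgdh to −0.16 in the interaction. Median-of-ratios scaling turned Atf4 to −0.032 and Atf5 to −0.090 in WT_FP against WT_DMSO, Psat1 to −0.039 in PKD_FP against WT_FP and Ppp1r15a to 0.022 in the interaction. Quantile normalization turned Trib3 to −0.045 and Atf5 to −0.059 in WT_FP against WT_DMSO, Psat1 to −0.022 in PKD_FP against WT_FP, and Atf4 to −0.054 and Ppp1r15a to 0.092 in the interaction. With 1 library left out, PKD_FP against PKD_DMSO ran from −0.014 to 0.43 for Ddit3, −0.13 to 0.028 for Asns, −0.074 to 0.33 for Ppp1r15a and −0.21 to 0.19 for Phgdh. WT_FP against WT_DMSO ran from −0.10 to 0.28 for Atf4, −0.44 to 0.046 for Ddit3, −0.17 to 0.26 for Trib3, −0.26 to 0.19 for Chac1, −0.21 to 0.51 for Ppp1r15a, −0.34 to 0.31 for Xbp1, −0.31 to 0.36 for Atf5, −0.71 to 0.14 for Psat1 and −0.21 to 0.052 for Phgdh. PKD_FP against WT_FP ran from −0.035 to 0.46 for Ddit3 and −0.37 to 0.48 for Psat1. The interaction ran from −0.079 to 0.31 for Atf4, −0.38 to 0.33 for Ppp1r15a, −0.56 to 0.085 for Xbp1, −0.52 to 0.15 for Atf5 and −0.13 to 0.26 for Phgdh.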
